A study of Mus musculus with 16 samples.

Results

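Pecam1, Cdh5, Emcn, Vwf, Kdr, Flt1, Tek, Tie1, Vegfa and Angpt2 are 10 genes that mark the lining of blood vessels or control vessel growth, and their probes were followed in injured mouse muscle. The genes, like the gene lists further below, were chosen by name with earlier results of these data known. Counts of calls among them are therefore no independent test. Every probe whose symbol in the deposited non-normalized table equals 1 of these names was taken, which gave 15 of 25697 probes. A probe was kept for testing when its detection p, the chance of its signal under the signal of negative control beads, was under 0.05 on at least 3 of the 15 arrays analysed. That filter kept 12 of the 15 probes and 14763 probes in all.

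The tissue was whole muscle of female mice, called hamstring muscle in the series design and hindlimb muscle in the protocol, taken 2 days after surgery. SCI+CDTX mice had a spinal cord injury (SCI) and CDTX injected into the muscle, CDTX being cardiotoxin, a venom protein that destroys muscle fibres. SCI+Saline mice had the cord injury with injected saline, Sham+CDTX mice sham surgery with CDTX, and Sham+Saline mice sham surgery with saline. All 4 groups were thus operated on and injected, and of these only SCI+CDTX muscle goes on to form neurogenic heterotopic ossification, per the series design. Strain and age are not given in the sources used here. Each group had 4 arrays, and SCI+CDTX replicate 2, which the authors excluded, was left out here, so n = 3 for SCI+CDTX and n = 4 for the other groups. Nothing in the labels says more of how the samples were raised or pooled, so the p-values measure only the spread between these samples. Whole muscle holds many cell types, and fewer endothelial cells and less RNA per endothelial cell cannot be told apart in it.

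Endothelial cells form the inner lining of vessels and, in muscle, a dense capillary bed around the fibres. They are joined to each other by the adhesion proteins encoded by Pecam1 and Cdh5, carry the sialomucin of Emcn on capillary and venous surfaces, and store the clotting glycoprotein of Vwf. Vegfa, made by muscle fibres and other cells and raised by low oxygen, drives vessel growth through the receptor of Kdr, while the receptor of Flt1 binds the same ligand tightly and limits its action. Angpt2 is released by activated endothelium and acts on the receptor encoded by Tek, for which Tie1 is a related partner receptor.

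Different probes of a gene gave different readings, so the sequences of the probes that decide this are shown. The 50-base probes below lie in the coding part of their transcripts. The Vwf probe covers the last codons of the coding sequence and carries the main Vwf result, and the Tie1 probe crosses an exon junction, with the 11 bases of the second block in capitals. The probes for Flt1, Vegfa and Angpt2 are the 3 that were detected on none of the 16 arrays, and the Vegfa probe is annotated as specific to an isoform and reads the basic, heparin-binding exon that shorter Vegfa isoforms skip.
Vwf ILMN_2519673: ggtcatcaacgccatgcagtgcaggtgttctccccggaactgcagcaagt
Tie1 ILMN_2928560: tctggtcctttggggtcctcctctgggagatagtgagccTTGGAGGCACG
Flt1 ILMN_2732721: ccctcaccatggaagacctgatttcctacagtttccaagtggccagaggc
Vegfa ILMN_3045723: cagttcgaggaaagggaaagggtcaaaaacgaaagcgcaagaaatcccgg
Angpt2 ILMN_2642165: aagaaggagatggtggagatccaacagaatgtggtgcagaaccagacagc

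The table lists these probes at chr6:125636506-125636555 on the plus strand (Vwf), and on the minus strand at chr4:117970810-117970938 in 2 blocks (Tie1), chr5:148393702-148393751 (Flt1), chr17:46159242-46159291 (Vegfa) and chr8:18714159-18714208 (Angpt2). The table names no genome build, so these positions are given only as it lists them. Each of the 3 undetected probes had a detected partner further along its transcript. The Flt1 pair starts at transcript bases 3232 and 6214, the Angpt2 pair at bases 589 and 2383. The isoform-specific Vegfa probe starts at base 819, before detected probes at bases 2128 and 2696, each counted on its own transcript. Where a gene has a silent and a detected probe, all values below are from the detected one.

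**Figure D1:**
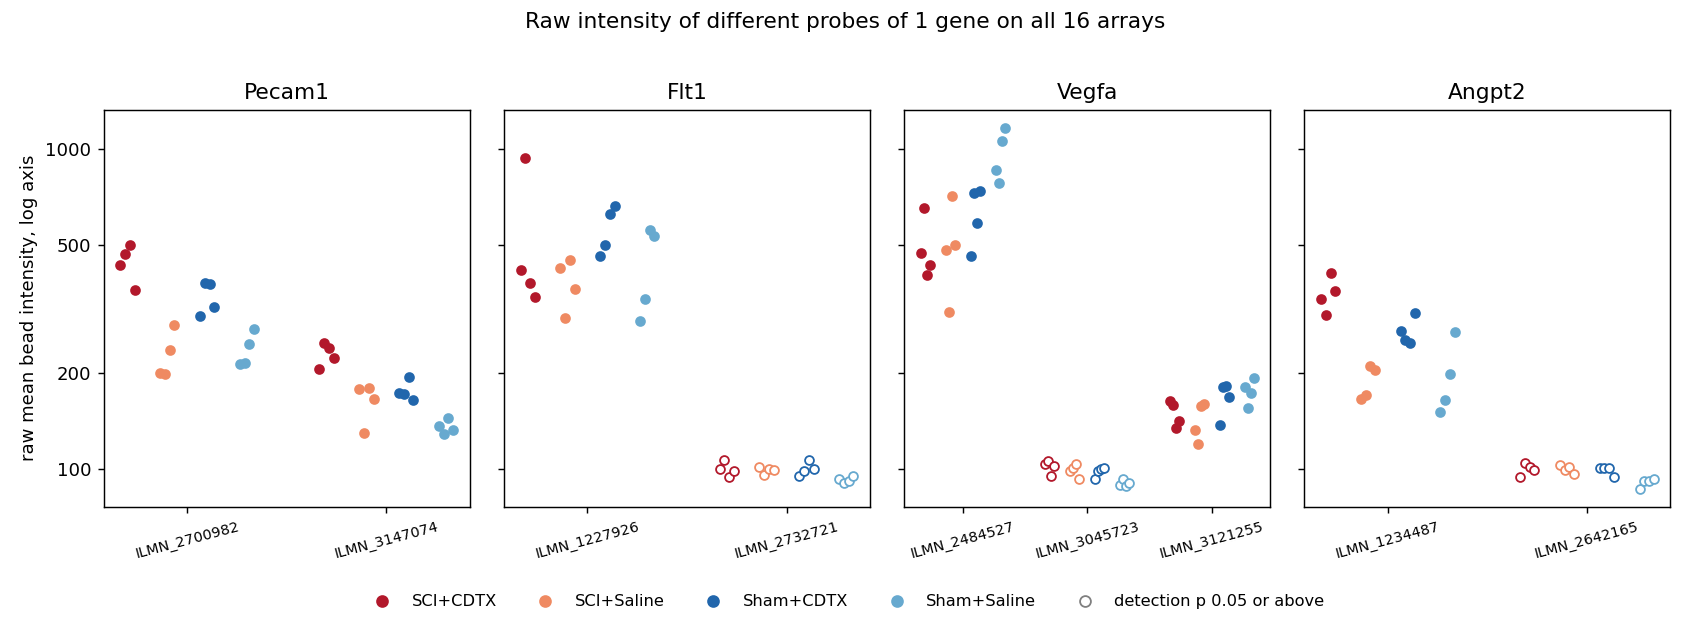
Raw mean bead intensity, on a log axis, of the different probes of Pecam1, Flt1, Vegfa and Angpt2 on all 16 arrays. Filled points have a detection p under 0.05. The probes ILMN_2732721, ILMN_3045723 and ILMN_2642165 are open on every array, at intensities between 87.0 and 107.0, while their partner probes are filled on every array.

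Muscle fibre markers were present as labelled, with 12 of 12 detected on every array. Mean intensity was 230.5 to 277.0 on the Sham+Saline arrays and 319.9 to 373.1 on the other 12, and 11114 to 13694 probes were detected per array. Because the Sham+Saline arrays were dimmer, the choice of scaling matters for every comparison with them. Levels below are log2 intensities after background correction and quantile normalization, which gives all arrays the same distribution. Median scaling, which only aligns the arrays' medians, shifted the middle of all 14763 log2 fold changes from -0.04 to 0.32 in Sham+CDTX against Sham+Saline, from -0.01 to 0.17 in SCI+Saline against Sham+Saline, from -0.03 to 0.32 in SCI+CDTX against Sham+Saline and from -0.01 to -0.24 in the interaction. Values under both scalings are given for most member calls. Where 1 fold change stands alone and no other fit is named, as for many genes outside the members, it is the quantile-normalized one. Its value under median scaling is then not shown. The sign of 16 of the 72 member values differed between the scalings. All SCI arrays lay on slide 1 and all sham arrays on slide 2, so surgery and slide cannot be told apart in any comparison between them.

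Vegfa was highest in muscle with neither injury and lower in every injured group. The brighter probe, ILMN_2484527 (chromosome 17, band 17qC), read 10.25, 10.19, 10.35 and 10.31 in Sham+Saline. It read 8.40, 9.07, 8.64 and 9.13 in Sham+CDTX, 8.73, 8.01, 9.12 and 8.62 in SCI+Saline, and 8.24, 8.06 and 8.25 in SCI+CDTX. Every Sham+Saline array lay above every array of the other groups, and the SCI+CDTX arrays lay below all Sham+CDTX arrays but within the SCI+Saline range. The raw intensities were apart in the same way, 782.4 to 1163.9 in Sham+Saline against at most 739.9 elsewhere, although the Sham+Saline arrays were the dimmest.

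Against Sham+Saline, Vegfa ILMN_2484527 fell by 1.65 on the log2 scale in SCI+Saline (SE 0.20, adjusted p = 5.4e-06), which is 3.15-fold. It fell by 1.47 in Sham+CDTX (SE 0.20, adjusted p = 6.83e-06) and by 2.09 in SCI+CDTX (SE 0.21, adjusted p = 3.27e-07), or 4.26-fold. These contrasts share the Sham+Saline arrays. Median scaling gave -1.27, -0.94 and -1.56, all of them called.

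The dimmer probe ILMN_3121255 placed the groups in the same order, with means of 7.32 ± 0.16 in Sham+Saline, 6.01 ± 0.27 in Sham+CDTX, 5.95 ± 0.42 in SCI+Saline and 5.63 ± 0.25 in SCI+CDTX (SD). Its 4 Sham+Saline arrays, at 7.22 to 7.55, lay above all others, whose highest value was 6.33. It fell by 1.31 in Sham+CDTX (adjusted p = 1.77e-05), by 1.37 in SCI+Saline (adjusted p = 3.14e-05) and by 1.69 in SCI+CDTX (adjusted p = 2.43e-06). Its raw intensities overlapped, with 155.3 to 192.7 in Sham+Saline and 137.0 to 181.5 in Sham+CDTX, and under median scaling the Sham+CDTX value of -0.48 missed the threshold (adjusted p = 0.0699).

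Among the injured groups the Vegfa differences were smaller. SCI+CDTX differed from SCI+Saline by -0.44 at ILMN_2484527 (95% interval -0.89 to 0.01, adjusted p = 0.11) and by -0.32 at ILMN_3121255 (adjusted p = 0.228; 0.02 under median scaling). The first probe was lower in SCI+CDTX than in Sham+CDTX by -0.62 (SE 0.21, adjusted p = 0.0339). That call was lost without any 1 of SCI+CDTX 1, 3 or 4 or Sham+CDTX 2 or 4 (-0.66 to -0.52, adjusted p of 0.0645 to 0.117), under median scaling (-0.63, adjusted p = 0.0644) and with all 16 arrays (-0.50, adjusted p = 0.11). For SCI+CDTX against SCI+Saline the array SCI+Saline 2 mattered the other way: without it the values became -0.64 and -0.51 and both were called (adjusted p = 0.0121 and 0.0411).

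**Figure D2:**
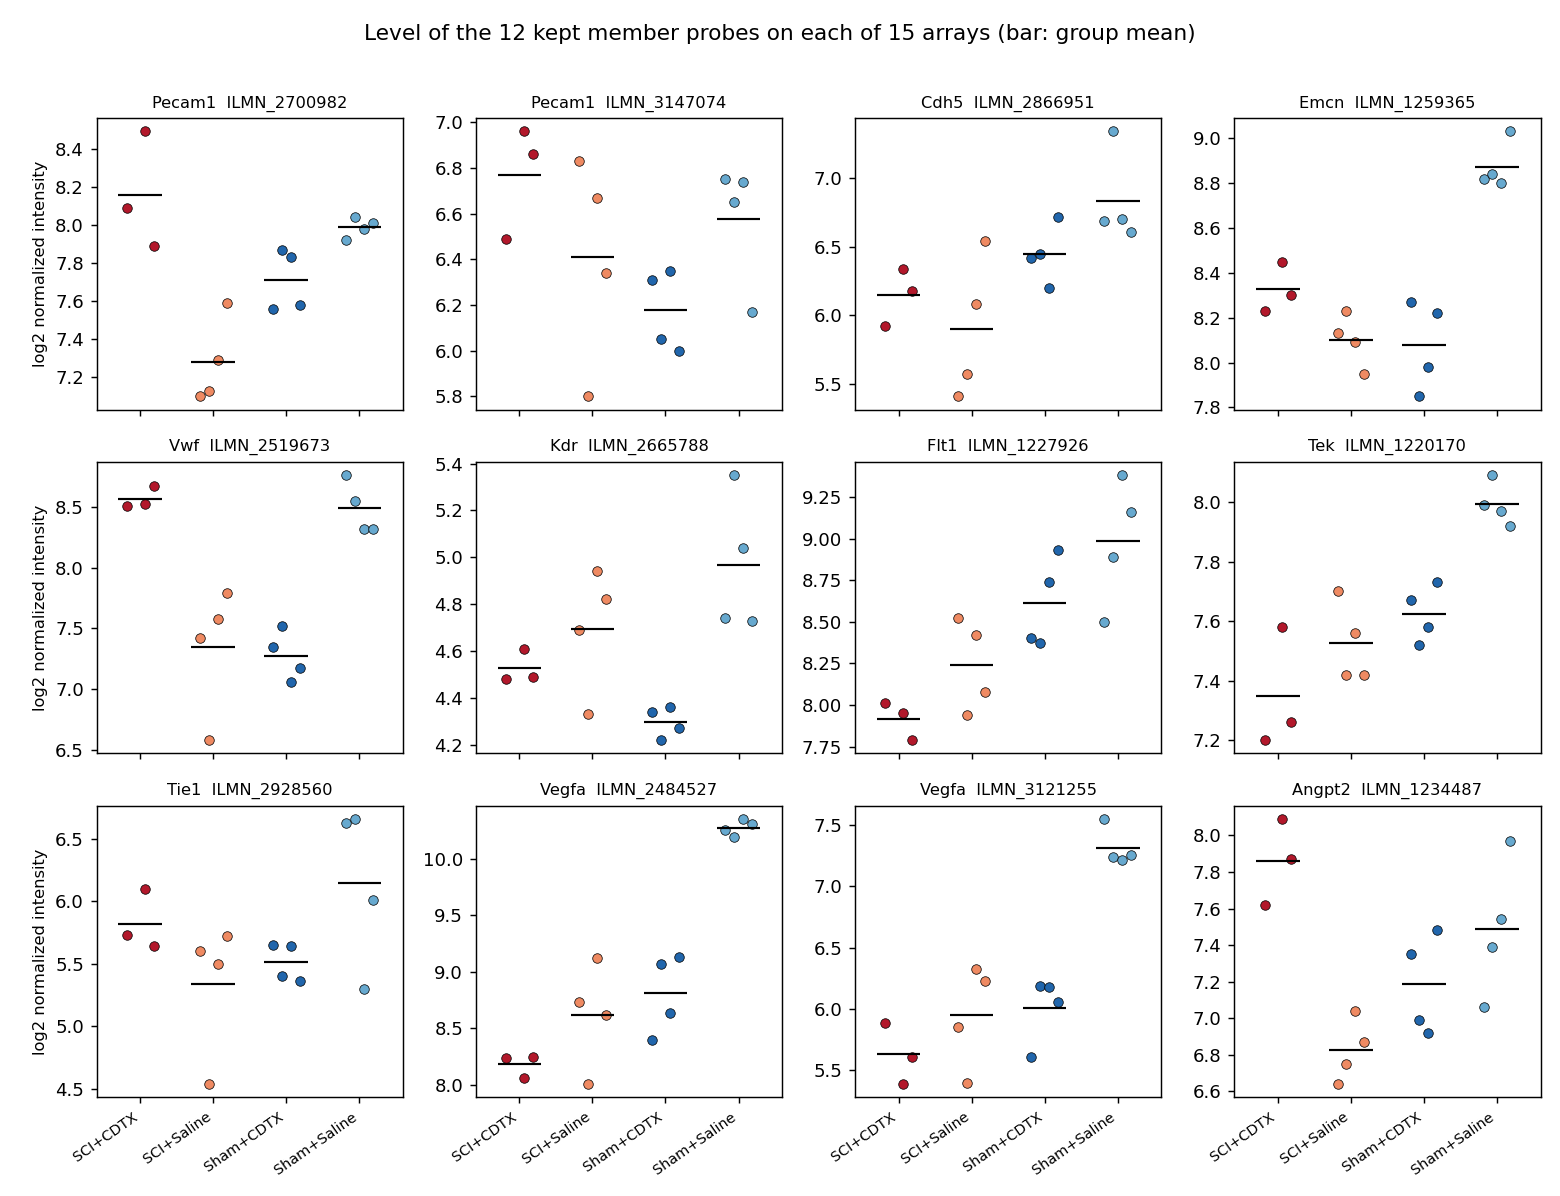
Log2 normalized intensity of each of the 12 kept probes on the 15 arrays analysed, by group, with the group mean as a bar. The 4 Sham+Saline arrays stand above all others for both Vegfa probes, Emcn and Tek, and the 3 SCI+CDTX arrays stand above all SCI+Saline and Sham+CDTX arrays for Vwf, Angpt2 and Pecam1 ILMN_2700982.

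Angpt2 rose with CDTX after cord injury. Its detected probe ILMN_1234487 (chromosome 8, band 8qA1.3) read 7.62, 8.09 and 7.87 in SCI+CDTX and 6.64, 6.75, 7.04 and 6.87 in SCI+Saline. It read 7.35, 6.99, 6.92 and 7.48 in Sham+CDTX and 7.06, 7.39, 7.54 and 7.97 in Sham+Saline. The SCI+CDTX arrays lay above every SCI+Saline and Sham+CDTX array and overlapped Sham+Saline.

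The rise of Angpt2 in SCI+CDTX over SCI+Saline was 1.04 (SE 0.20, 95% interval 0.62 to 1.45, adjusted p = 0.000407), or 2.05-fold, and both groups share a slide. It was 1.37 under median scaling and 0.88 with all 16 arrays, and it stayed called in both. Against Sham+CDTX the level was higher by 0.68 (adjusted p = 0.0152), but without SCI+CDTX 3 or without Sham+CDTX 3 the call was lost (0.56 to 0.59, adjusted p of 0.0504 to 0.0864), as it was under median scaling (0.60, adjusted p = 0.0583) and with all 16 arrays (0.52, adjusted p = 0.0922). In saline muscle Angpt2 was lower after SCI than after sham surgery by -0.66 (adjusted p = 0.0108), and median scaling gave -0.28 (adjusted p = 0.372). Sham+CDTX and Sham+Saline differed by -0.30 (adjusted p = 0.188) under quantile normalization and by 0.50 under median scaling, so the sign there depends on the scaling. SCI+CDTX differed from Sham+Saline by 0.37 (adjusted p = 0.138), which became 0.53 and passed without Sham+Saline 4 (adjusted p = 0.0298) and was 1.10 under median scaling (adjusted p = 0.0006).

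Tek, the angiopoietin receptor, was highest in Sham+Saline after quantile normalization. Probe ILMN_1220170 (chromosome 4, band 4qC5) read 7.99, 8.09, 7.97 and 7.92 in Sham+Saline, 7.67, 7.52, 7.58 and 7.73 in Sham+CDTX, 7.70, 7.42, 7.56 and 7.42 in SCI+Saline and 7.20, 7.58 and 7.26 in SCI+CDTX. Every Sham+Saline array lay above every other array, and the other groups overlapped. Raw intensities showed no such gap, with 219.9 to 263.1 in Sham+Saline and 316.8 to 343.9 in Sham+CDTX.

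Against Sham+Saline the Tek value was -0.37 in Sham+CDTX (adjusted p = 0.0211), -0.47 in SCI+Saline (adjusted p = 0.00926) and -0.65 in SCI+CDTX (adjusted p = 0.00071), whereas median scaling gave 0.40, -0.02 and 0.09, with the first of these called as higher (adjusted p = 0.0136). The quantile-normalized call in Sham+CDTX was also lost without Sham+CDTX 2 or without Sham+Saline 2 (-0.34 in each, adjusted p of 0.056 to 0.0586) and with all 16 arrays (adjusted p = 0.0519). No direction for Tek against Sham+Saline held under both scalings with a call. Within the SCI groups the difference was -0.18 (95% interval -0.47 to 0.11) and 0.11 under median scaling.

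Tie1, read by the coding probe shown above, was dim and variable. Its levels were 5.64 to 6.10 in SCI+CDTX, 5.36 to 5.65 in Sham+CDTX, 5.30 to 6.66 in Sham+Saline and 4.54 to 5.72 in SCI+Saline, where 1 of 4 arrays (SCI+Saline 2, detection p 0.10401) did not detect it. All group ranges overlapped. The only called 2-group difference was SCI+Saline below Sham+Saline by -0.81 (SE 0.27, adjusted p = 0.0296), which was lost without SCI+Saline 2, Sham+Saline 1 or Sham+Saline 2 (-0.66 to -0.55, adjusted p of 0.0995 to 0.123) and under median scaling (-0.42, adjusted p = 0.183). Sham+CDTX differed from Sham+Saline by -0.64 without a call (adjusted p = 0.0586), and the call was made without SCI+Saline 2 or without Sham+Saline 3 (-0.93 to -0.64, adjusted p of 0.00443 to 0.0285), while median scaling gave 0.09. SCI+CDTX differed from Sham+Saline by -0.33 and by 0.37 under median scaling, neither called.

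Flt1, the decoy-type receptor, was read by ILMN_1227926 (chromosome 5, band 5qG3) at 8.50, 8.89, 9.38 and 9.16 in Sham+Saline, 8.40, 8.37, 8.74 and 8.93 in Sham+CDTX, 8.52, 7.94, 8.42 and 8.08 in SCI+Saline, and 8.01, 7.95 and 7.79 in SCI+CDTX. The SCI+CDTX arrays lay below all sham arrays and overlapped SCI+Saline. In the order of means (8.98, 8.61, 8.24 and 7.92) each pair of neighbouring groups overlapped. Flt1 was lower in SCI+CDTX than in Sham+CDTX by -0.69 (SE 0.21, adjusted p = 0.0154), and median scaling gave -0.70 (adjusted p = 0.037). The call was lost without SCI+CDTX 4 or without Sham+CDTX 4 (-0.63 to -0.59, adjusted p of 0.0557 to 0.0689) and with all 16 arrays (-0.35, adjusted p = 0.425).

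Compared with Sham+Saline, Flt1 was lower by -1.06 in SCI+CDTX (adjusted p = 0.000291) and by -0.74 in SCI+Saline (adjusted p = 0.00619). Median scaling kept both signs and neither call (-0.42, adjusted p = 0.161, and -0.30, adjusted p = 0.346). The second was also lost with all 16 arrays (adjusted p = 0.0556). CDTX after sham surgery gave -0.37 (adjusted p = 0.116) by quantile normalization and 0.28 by median scaling. Without Sham+Saline 1 the quantile-normalized value was -0.53 and passed (adjusted p = 0.0248).

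Kdr, the main signalling receptor for Vegfa, was at the edge of detection. Probe ILMN_2665788 (chromosome 5, band 5qC3.3) was detected on 3 of 4 Sham+Saline arrays, 2 of 4 SCI+Saline arrays, 1 of 3 SCI+CDTX arrays and 0 of 4 Sham+CDTX arrays, with raw intensities of 96.0 to 113.7 over the 15 arrays. Raw intensities overlapped between Sham+Saline (96.3 to 102.5) and Sham+CDTX (96.0 to 101.9). They were 102.1 to 113.7 in SCI+Saline and 106.9 to 109.3 in SCI+CDTX. Normalized Kdr levels ran from 4.22 to 5.35. By the normalized group means Kdr was at least 1.36-fold higher in Sham+Saline (mean 4.96) than in Sham+CDTX (mean 4.30, not well above background). The fitted difference had an adjusted p of 0.00172, and the bound itself carries no interval. This bound sets the Sham+Saline mean against 4.52, the mean over the Sham+CDTX arrays of the lowest signal among detected probes or, where higher, the probe's own. With 1 of 3 SCI+CDTX arrays detected, at a mean of 4.53, the fitted difference from Sham+Saline was -0.43 (adjusted p = 0.0424), which is uncertain at this signal, a call lost in 9 of 15 runs with 1 array left out (SCI+CDTX 1, 3 or 4, any Sham+CDTX array, Sham+Saline 2 or 3; adjusted p of 0.0516 to 0.136) and under median scaling (-0.25, adjusted p = 0.147).

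Vwf showed the widest spread between groups of the endothelial surface and storage genes. The probe ILMN_2519673 printed above (chromosome 6, band 6qF3) read 8.51, 8.52 and 8.67 in SCI+CDTX and 8.76, 8.55, 8.32 and 8.32 in Sham+Saline. It read 7.35, 7.52, 7.06 and 7.17 in Sham+CDTX and 7.42, 6.58, 7.58 and 7.79 in SCI+Saline. SCI+CDTX and Sham+Saline overlapped each other and lay above all arrays of Sham+CDTX and SCI+Saline, which also overlapped.

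After cord injury, Vwf was higher with CDTX than with saline by 1.22 (SE 0.22, 95% interval 0.76 to 1.68, adjusted p = 0.000216), or 2.34-fold. After sham surgery it was lower with CDTX by -1.21 (SE 0.20, adjusted p = 7.09e-05). SCI+CDTX exceeded Sham+CDTX by 1.30 (adjusted p = 0.000211), and SCI+Saline was below Sham+Saline by -1.14 (adjusted p = 0.000339). Median scaling gave 1.46, -0.46, 1.17 and -0.75, of which the second was not called (adjusted p = 0.0958). In raw intensity SCI+CDTX stood at 509.9 to 547.6 above every other array analysed, while Sham+CDTX (263.6 to 321.5) and Sham+Saline (282.0 to 335.4) overlapped. Platelets also carry Vwf, and of 8 platelet and megakaryocyte markers 4 were kept. limma called 0 of them in each of the 6 comparisons, with 0 at an unadjusted p under 0.05 in the 5 comparisons of 2 groups and 1 in the interaction. In the comparisons where Vwf was called, the median of these 4 had the same sign as Vwf, at 0.29 with CDTX after SCI, -0.40 with CDTX after sham surgery, 0.35 between the CDTX groups, -0.34 between the saline groups and 0.69 in the interaction, and their part in the Vwf result was not tested. Gp1bb was detected on no array, and the summed level of the list was 144.3 to 174.8 in SCI+CDTX, 114.7 to 193.5 in SCI+Saline, 126.1 to 143.1 in Sham+CDTX and 121.8 to 328.1 in Sham+Saline.

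The array left out of the fits lay outside the range of the other SCI+CDTX arrays at 9 of the 12 kept probes, and farthest for Vwf and Flt1. On a normalization of all 16 arrays, SCI+CDTX 2 read 6.86 for Vwf where the other SCI+CDTX arrays read 8.55, 8.56 and 8.71, and 9.31 for Flt1 where they read 8.05, 7.99 and 7.83. It was also outside their range for Angpt2 (7.27 against 7.65 to 8.13), Tek (7.95 against 7.24 to 7.62) and Vegfa ILMN_2484527 (8.70 against 8.10 to 8.29). Smaller gaps were found for Cdh5 (6.59 against 5.96 to 6.38), Kdr (4.31 against 4.49 to 4.62), Tie1 (5.52 against 5.67 to 6.14) and Emcn (8.23 against 8.27 to 8.49), and both Pecam1 probes and Vegfa ILMN_3121255 lay inside. With it included, the Vwf rise over SCI+Saline was 0.79 (adjusted p = 0.0666) and the difference from Sham+CDTX 0.86 (adjusted p = 0.0744), so neither was called.

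The same array shared a further property with Sham+CDTX. A score was formed as the first component of the differences between probes of the same gene, over 2780 genes with 2 kept probes and without the members, and it held 33.1% of their variance. It was 18.3 to 20.6 on the Sham+CDTX arrays, 14.8 on SCI+CDTX 2 and -14.0 to -3.6 on the other 11. A fit on all 16 arrays with this score as a covariate can separate it from Sham+CDTX only through SCI+CDTX 2. That fit gave -0.83 for Vwf, -0.01 for Angpt2 and 0.74 for Flt1 in SCI+CDTX against Sham+CDTX, and 1.46 for Vwf in Sham+CDTX against Sham+Saline, each with the opposite sign to the values above. In all, 9 of 72 member values changed sign in it, 4 of them called in the fit without it. Its part in the differences that involve Sham+CDTX was not tested further.

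**Figure D3:**
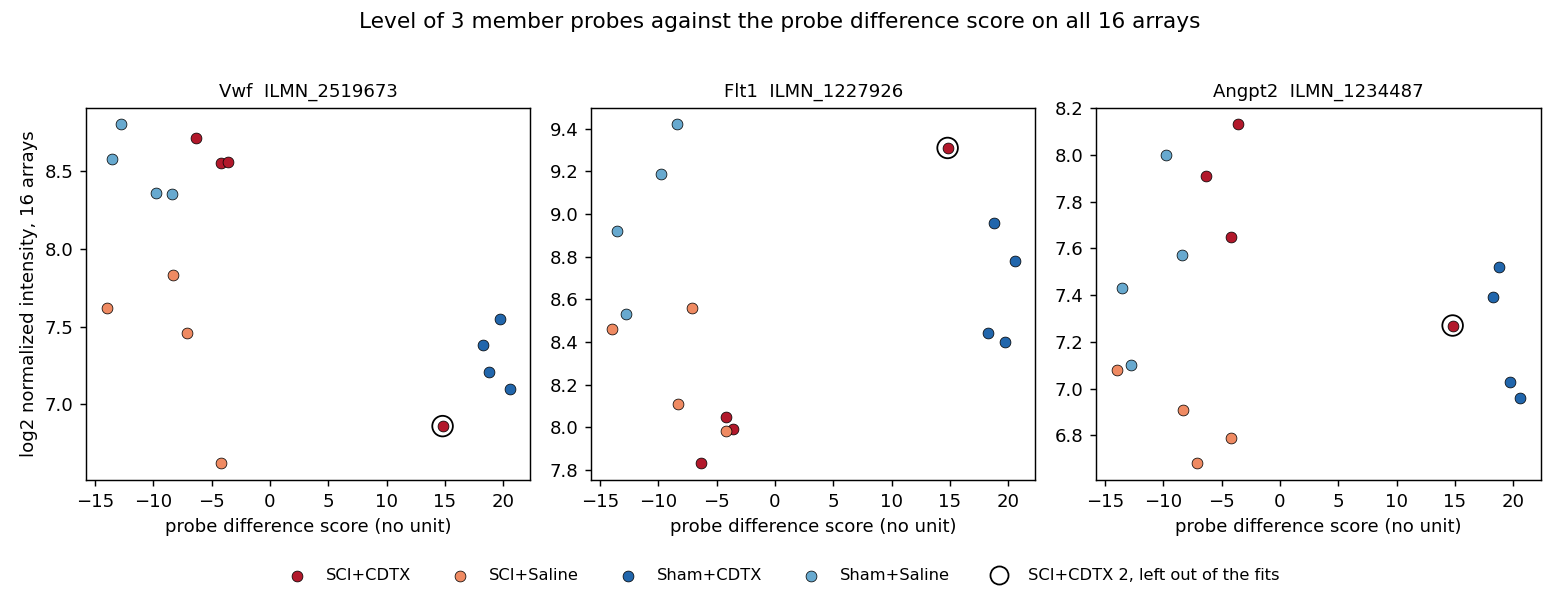
Log2 normalized intensity of Vwf, Flt1 and Angpt2 on all 16 arrays against the probe difference score, which has no unit. SCI+CDTX 2, ringed, has a score of 14.8, near those of the Sham+CDTX arrays at 18.3 to 20.6. Its level is apart from the other SCI+CDTX arrays for each of the 3 probes. That level lies within the Sham+CDTX levels for Angpt2, below them for Vwf and above them for Flt1.

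Pecam1, the adhesion protein of endothelial junctions that platelets and leukocytes also carry, rose with CDTX after cord injury at its brighter probe. ILMN_2700982 (chromosome 11, band 11qE1) read 8.09, 8.49 and 7.89 in SCI+CDTX, 7.10, 7.13, 7.29 and 7.59 in SCI+Saline, 7.56, 7.87, 7.83 and 7.58 in Sham+CDTX, and 7.92, 8.04, 7.98 and 8.01 in Sham+Saline. SCI+CDTX lay above SCI+Saline and Sham+CDTX without overlap and overlapped Sham+Saline. The rise over SCI+Saline was 0.88 (SE 0.16, adjusted p = 0.000276), or 1.84-fold, and 1.16 under median scaling. With all 16 arrays it was 0.86 (adjusted p = 0.00031).

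The dimmer Pecam1 probe ILMN_3147074, which lies further along the transcript, did not track the first closely. It read 6.49 to 6.96 in SCI+CDTX, 5.80 to 6.83 in SCI+Saline, up to 6.35 in Sham+CDTX and 6.17 to 6.75 in Sham+Saline, so SCI+CDTX overlapped both saline groups. Its difference from SCI+Saline was 0.36 (95% interval -0.09 to 0.82, adjusted p = 0.191), and median scaling gave 0.73 with a call (adjusted p = 0.00902). Both probes were higher in SCI+CDTX than in Sham+CDTX, by 0.45 and 0.59 (adjusted p = 0.0453 for each). The first was lost in 10 of 15 runs with 1 array left out (SCI+CDTX 1 or 3, SCI+Saline 3, Sham+CDTX 1, 3 or 4, any Sham+Saline array; 0.28 to 0.49) and the second in 7 (SCI+CDTX 3 or 4, any Sham+CDTX array, Sham+Saline 2; 0.50 to 0.65). Median scaling also lost both (0.38 and 0.54).

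In saline muscle Pecam1 ILMN_2700982 was lower after SCI by -0.71 (adjusted p = 0.00143), and the other probe gave -0.17 (adjusted p = 0.58). Median scaling gave -0.30 for the first, without a call (adjusted p = 0.209), and 0.23 for the other. Against Sham+Saline, SCI+CDTX differed by 0.17 and 0.19 under quantile normalization, neither called, and by 0.86 and 0.96 under median scaling, both called (adjusted p = 0.000796 and 0.000847). CDTX after sham surgery changed sign with the scaling, from -0.28 to 0.48 at the first probe and from -0.40 to 0.42 at the second, where the quantile-normalized value was -0.54 and called without Sham+Saline 4 (adjusted p = 0.0376).

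Emcn, the capillary and venous sialomucin, was highest in Sham+Saline. ILMN_1259365 (chromosome 3, band 3qG3) read 8.82, 8.84, 8.80 and 9.03 there, 8.23, 8.45 and 8.30 in SCI+CDTX, 8.13, 8.23, 8.09 and 7.95 in SCI+Saline and 8.27, 7.85, 7.98 and 8.22 in Sham+CDTX. Sham+Saline lay above all other arrays, and SCI+CDTX overlapped Sham+CDTX. SCI+CDTX lay just above SCI+Saline, the nearest values of both rounding to 8.23. The value against Sham+Saline was -0.79 in Sham+CDTX (adjusted p = 6.24e-05), -0.77 in SCI+Saline (adjusted p = 0.000218) and -0.54 in SCI+CDTX (adjusted p = 0.00386), whereas median scaling gave -0.11, -0.34 and 0.08 with no call. Raw intensity in Sham+Saline, 329.7 to 491.9, overlapped every other group.

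Cdh5, the cadherin of endothelial junctions, read 6.69, 7.34, 6.70 and 6.61 in Sham+Saline at ILMN_2866951 (chromosome 8, band 8qD3). It read 6.42, 6.45, 6.20 and 6.72 in Sham+CDTX, 5.41, 5.57, 6.08 and 6.54 in SCI+Saline and 5.92, 6.34 and 6.18 in SCI+CDTX. Sham+Saline overlapped Sham+CDTX and lay above both SCI groups. Cdh5 was lower after SCI in saline muscle by -0.94 (SE 0.22, adjusted p = 0.00321), and median scaling gave -0.54 (adjusted p = 0.078). SCI+CDTX was below Sham+Saline by -0.69 (adjusted p = 0.022), a value that median scaling turned to 0.09 and that lost its call without SCI+CDTX 1 or without Sham+Saline 2 (-0.58 to -0.53). CDTX after sham surgery gave -0.39 by quantile normalization and 0.44 by median scaling, neither called.

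In SCI+CDTX against SCI+Saline, which share a slide, 3 of the 12 kept probes were called, and all 3 were higher: Pecam1 ILMN_2700982, Vwf and Angpt2. Over all 14763 probes 42.9% were called, 20.4% as higher and 22.5% as lower, so 3 of 12 is not more than the background. The values of Kdr, Flt1, Tek and both Vegfa probes were below 0 without a call. At an unadjusted p under 0.05 limma gave 0 lower probes. The median log2 fold change was 0.24 over the 12 probes and -0.05 over all. Median scaling called 7, all higher, adding the second Pecam1 probe, Cdh5, Emcn and Tie1, while 64.9% of all calls were then higher. Without SCI+Saline 2, 5 probes were called, 3 higher and the 2 Vegfa probes lower.

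After sham surgery the response to CDTX was a fall by quantile normalization. In Sham+CDTX against Sham+Saline, on the other slide, 6 of 12 probes were called and all were lower: Emcn, Vwf, Kdr, Tek and both Vegfa probes. Of all probes 48.9% were called, 23.1% as higher and 25.8% as lower, and limma gave 0 higher members at an unadjusted p under 0.05. The median was -0.52 over the members and -0.04 over all. Median scaling called 4 members, 2 higher (Pecam1 ILMN_2700982 and Tek) and 2 lower (Kdr and Vegfa ILMN_2484527), and turned the split of all calls to 85.1% higher. Vegfa ILMN_2484527 and Kdr were the only members called as lower under both scalings. The fit with the probe difference score called 4 members, 3 as lower and 1, Vwf, as higher. It called 3095 of 14955 probes in all.

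**Figure D4:**
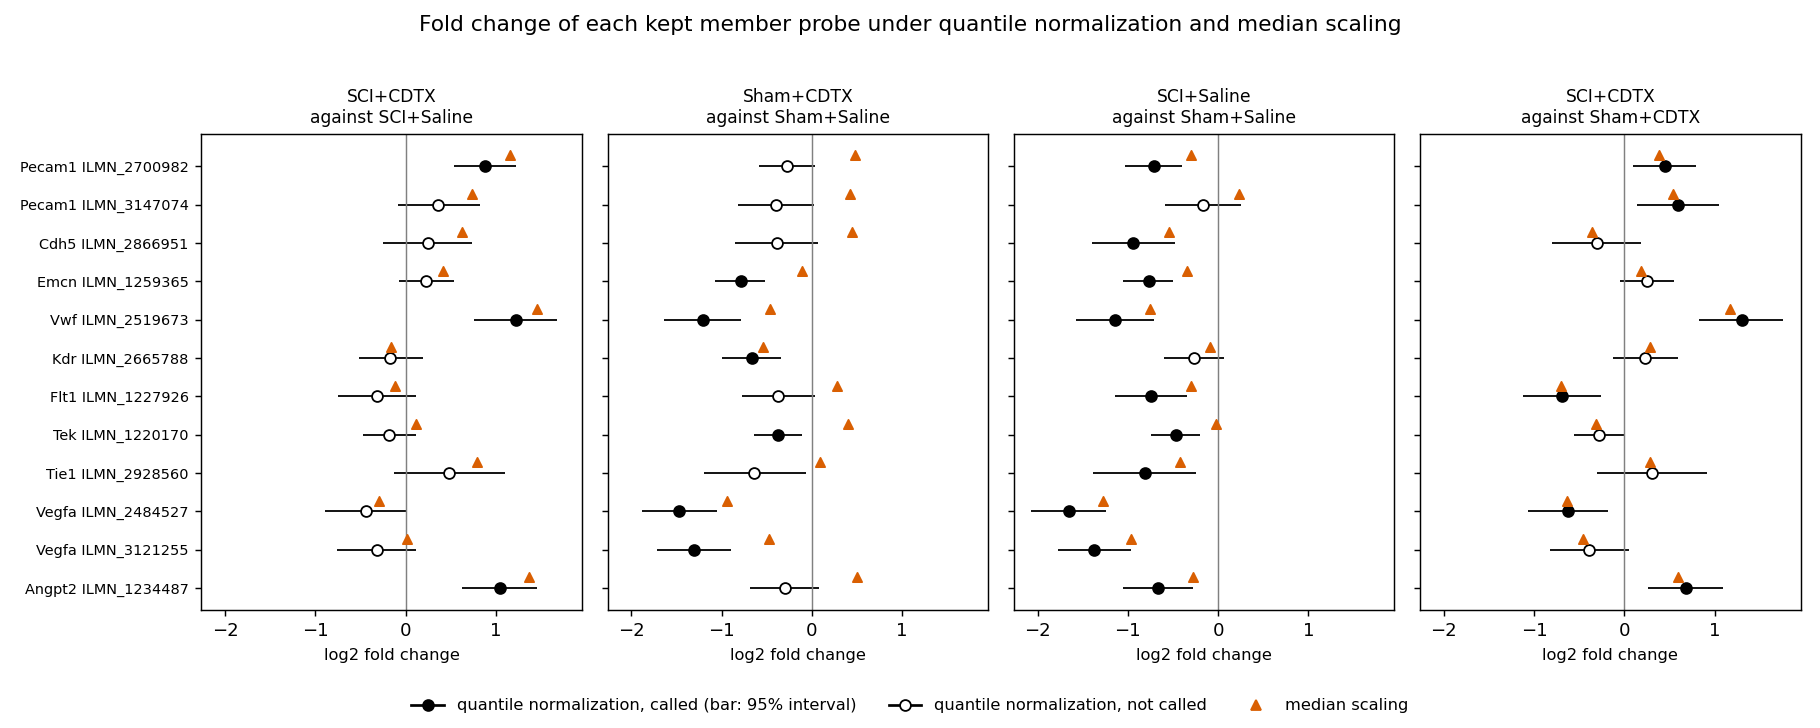
Log2 fold change of the 12 kept probes in 4 comparisons, with 95% intervals, filled where the Benjamini-Hochberg adjusted p is under 0.05. Triangles give the value under median scaling, which moves every member upward in Sham+CDTX against Sham+Saline, where Tek goes from -0.37 to 0.40 and Vegfa ILMN_2484527 from -1.47 to -0.94.

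Cord injury in saline muscle was accompanied by lower members. In SCI+Saline against Sham+Saline, 10 of 12 were called, all lower, and Kdr and Pecam1 ILMN_3147074 were not. The background was 29.5% called and 14.6% called as lower, and limma gave 0 higher members at an unadjusted p under 0.05. The median was -0.76 for the members and -0.01 for all probes. Median scaling called 3 (Vwf and both Vegfa probes), all lower, among calls of which 86.4% were higher. Slide and surgery cannot be told apart here.

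Cord injury in CDTX muscle split the members. In SCI+CDTX against Sham+CDTX, 6 of 12 were called, with both Pecam1 probes, Vwf and Angpt2 higher and Flt1 and Vegfa ILMN_2484527 lower, against a background of 29.8%. Median scaling called 2, Vwf as higher and Flt1 as lower, and all 16 arrays called 1, Pecam1 ILMN_3147074. Leaving out SCI+CDTX 3 or Sham+CDTX 4 left 2 calls, and leaving out SCI+CDTX 4 or Sham+CDTX 3 left 3. The fit with the probe difference score called 0 members by limma, with 1 at an unadjusted p under 0.05. It called only 263 of 14955 probes in all, so 0 of 12 is near the background. Slide and surgery cannot be told apart here either.

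With both injuries against neither, 7 of 12 members were called in SCI+CDTX against Sham+Saline, all lower, and the background was 46.5% called, 23% as higher and 23.6% as lower. They were both Vegfa probes, Flt1, Cdh5, Tek, Emcn and Kdr. Median scaling called 6, of which 4 were higher (both Pecam1 probes, Vwf and Angpt2) and 2 lower (both Vegfa probes), with 82.6% of all calls higher. Both Vegfa probes were the only members lower under both scalings.

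The test of the difference between the CDTX responses, the interaction, was positive for 7 of 12 members, against 23.6% of all probes called and 12% called as positive. An effect that the slide adds alike to both of its groups cancels in it. The values were 2.44 for Vwf (SE 0.30, adjusted p = 2.41e-05), 1.34 for Angpt2 (SE 0.27, adjusted p = 0.00155), 1.16 for Pecam1 ILMN_2700982 (SE 0.22, adjusted p = 0.000956) and 1.02 for Emcn (SE 0.19, adjusted p = 0.00089). Vegfa gave 1.03 and 0.98 at its probes (adjusted p = 0.0151 and 0.0166) and Tie1 1.12 (adjusted p = 0.048). The median was 1.00 over the members and -0.01 over all probes. Median scaling called 2, Vwf at 1.93 (adjusted p = 0.00034) and Angpt2 at 0.88 (adjusted p = 0.0425), and gave positive values for the other 5. The fit with the probe difference score called 0, with 5 positive members at an unadjusted p under 0.05 and a Vwf value of 0.07. It called only 43 of 14955 probes in all, so 0 of 12 is near the background. The Tie1 call was lost in 11 of 15 runs with 1 array left out (any SCI+CDTX or Sham+CDTX array, SCI+Saline 2, Sham+Saline 1, 2 or 4; 0.86 to 1.21), and that of Vegfa ILMN_3121255 without SCI+CDTX 1 (0.86, adjusted p = 0.0509). Pecam1 ILMN_3147074 gained a call without SCI+CDTX 1, SCI+Saline 1, SCI+Saline 3 or Sham+Saline 4 (0.85 to 0.90), and Cdh5 without SCI+Saline 4 (0.85).

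The authors' deposited table of mean intensities holds means after another normalization and difference p-values against SCI+CDTX only. In the authors' deposited table Vegfa ILMN_2484527 had a mean of 1151.2 in Sham+Saline, 475.8 in Sham+CDTX, 371.7 in SCI+Saline and 312.6 in SCI+CDTX. Angpt2 means in the authors' deposited table were 134.0, 153.5, 80.5 and 252.8 in that order, and Vwf means 290.0, 163.0, 135.0 and 403.4. Of the 15 probes, 6 had a p under 0.05 in the authors' deposited table against SCI+Saline, all higher in SCI+CDTX, where 18.8% of its 25697 probes had one. Against Sham+CDTX there were 5 (3 higher, 2 lower; 16.3% of all) and against Sham+Saline 6 (4 higher, 2 lower; 24.4%) in the authors' deposited table. The 4 higher than in Sham+Saline were both Pecam1 probes, Vwf and Angpt2, and the 2 lower were the Vegfa probes.

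Other endothelial genes also rose with CDTX after cord injury. Of a list of 35 further endothelial markers, 29 were kept, and in SCI+CDTX against SCI+Saline 17 rose and limma called 0 as lower (0 at an unadjusted p under 0.05), with a median of 0.63 against -0.04 over 10952 genes, of which 22.1% rose. Cd93, a lectin-like receptor of endothelium and monocytes, rose by 1.48, Lmo2, a transcriptional cofactor of blood and endothelial cells, by 1.33, and Plvap, the diaphragm protein of fenestrae, by 1.21. Median scaling called 20 higher and 0 lower, where 64.9% of all calls were higher, and all 16 arrays 11 higher and 0 lower. The summed level of the list was 11200 to 13690 in SCI+CDTX and 6870 to 8874 in SCI+Saline. It was 9522 to 10040 in Sham+CDTX and 10600 to 11680 in Sham+Saline, so SCI+CDTX overlapped Sham+Saline and SCI+Saline was lowest.

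After sham surgery the list had 4 higher and 14 lower with CDTX (median -0.45) by quantile normalization, against 23.7% and 26.9% of all genes. Median scaling gave 9 higher and 4 lower (median 0.18), where 85.1% of all calls were higher. Cldn5, a tight junction protein, fell by 2.07 and Gpihbp1, the capillary anchor of lipoprotein lipase, fell by 1.66, and both also fell under median scaling (-1.33 and -0.85). Cd93 rose by 1.66 and by 2.20 under median scaling. In the fit with the probe difference score Cldn5 was at 0.25 and Gpihbp1 at -0.52, neither called.

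Between surgeries, SCI+Saline had 1 endothelial marker higher and 15 lower than Sham+Saline (median -0.52), against 14.7% and 15.8% of all genes. Median scaling gave 2 higher and 7 lower (median -0.13), where 86.4% of all calls were higher. Podxl, a vessel surface sialomucin, fell by 1.11, Nos3, the endothelial nitric oxide synthase, by 1.10 and Sox18, an endothelial transcription factor, by 1.03, and each also fell under median scaling (-0.71, -0.69 and -0.64). In CDTX muscle 15 markers were higher and 4 lower after SCI, against 16.4% and 15.8% of all genes. The fit with the probe difference score called 0 in either direction, and only 263 of 14955 probes in all. Against Sham+Saline, SCI+CDTX had 6 higher and 4 lower by quantile normalization. Of all genes 23.9% were higher and 24% lower, so these counts are not more than the background. Median scaling gave 16 higher and 0 lower, where 82.6% of all calls were higher. The interaction was positive for 15 markers and limma called 0 as negative (0 at an unadjusted p under 0.05), against 13.8% and 11.6% of all genes. Cldn5 was at 2.88, Icam2, an endothelial adhesion molecule, at 2.01 and Sox18 at 2.00. These values are quantile-normalized, do not include the probe difference score and rest in part on the Sham+CDTX arrays. With that score only 43 of 14955 probes were called in the interaction.

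**Figure D5:**
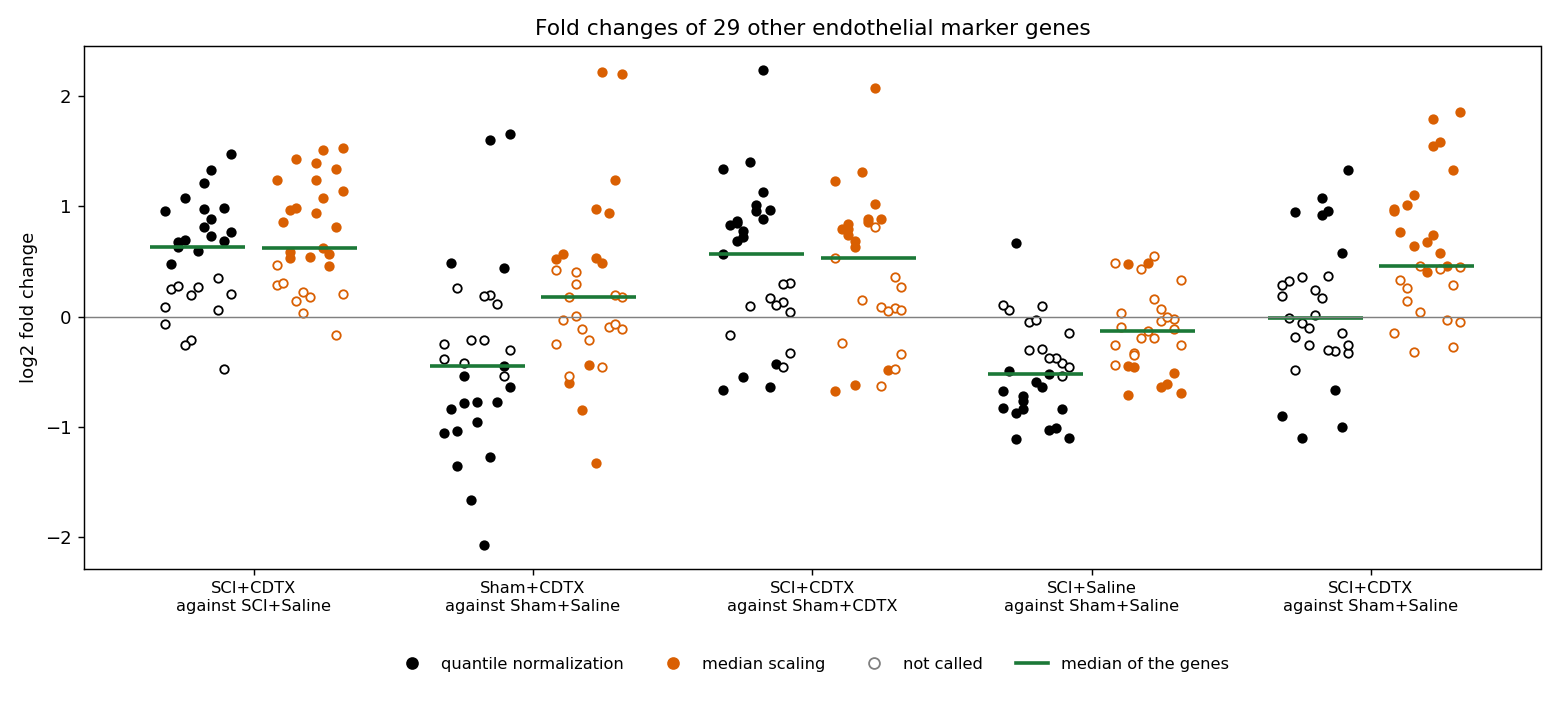
Log2 fold change of 29 other endothelial marker genes in 5 comparisons under quantile normalization and median scaling, filled where called, with the median as a bar. In SCI+CDTX against SCI+Saline both medians lie above 0 (0.63 and 0.62), while in Sham+CDTX against Sham+Saline they lie on opposite sides (-0.45 and 0.18).

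The remaining ligands and receptors of the family were called mostly lower between surgeries by quantile normalization, while calls with CDTX were mixed. Of 9 listed genes 7 were kept. SCI+CDTX against Sham+CDTX had 0 higher (0 at an unadjusted p under 0.05 by limma) and 4 lower, against 16.4% and 15.8% of all genes. SCI+Saline against Sham+Saline had 1 and 4 (14.7% and 15.8%), and SCI+CDTX against Sham+Saline 1 and 4 (23.9% and 24%). CDTX gave 1 and 1 after SCI (22.1% and 22.2%) and 2 and 1 after sham surgery (23.7% and 26.9%). Vegfb, a ligand of Flt1, was lower in SCI+CDTX than in Sham+Saline by -1.85 (adjusted p = 1.14e-07) and lower in both single-injury groups, by -0.81 with CDTX and by -0.92 with SCI, and median scaling kept these signs and calls (-1.40, -0.39 and -0.46). Vegfd, a ligand of lymphatic and vascular receptors, rose with CDTX after sham surgery by 2.08 and was at -0.48 after cord injury without a call, with an interaction of -2.56 (adjusted p = 1.12e-05). Nrp1, a coreceptor that binds Vegfa, rose with CDTX by 1.01 after SCI and by 1.55 after sham surgery.

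Hypoxia-responsive genes did not all move with Vegfa, and with both injuries the direction of most calls depended on the scaling. By quantile normalization the median of the kept genes was -0.42 in SCI+CDTX, -0.32 in SCI+Saline and -0.21 in Sham+CDTX, each against Sham+Saline. Over all genes it was -0.04, -0.02 and -0.05. Of 17 listed genes 14 were kept, and in SCI+CDTX against Sham+Saline 2 were higher and 7 lower by quantile normalization, where 23.9% of all genes were higher and 24% lower. Median scaling gave 7 higher and 3 lower, among calls of which 82.6% over all probes were higher. Egln1, an oxygen-sensing hydroxylase, was lower by -1.82 and Ldha, lactate dehydrogenase, by -1.0, and both stayed called under median scaling (-1.07 and -1.22). Egln3, a related hydroxylase, rose with SCI in saline muscle by 2.06 and was lower with CDTX after SCI by -1.71. Slc2a1, a glucose transporter, rose with CDTX after SCI by 1.41.

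Genes of sprouting and Notch signalling, of which 13 of 17 were kept, had 7 higher and 1 lower with CDTX after SCI (8 and 1 under median scaling), against 22.1% and 22.2% of all genes. Notch4, an endothelial Notch receptor, rose by 1.2 and Notch1 by 1.12, while Hes1, a Notch target, fell by 1.10. In SCI+Saline against Sham+Saline 1 was higher and 8 were lower, against 14.7% and 15.8% of all genes, and median scaling gave 1 and 4. Cxcr4, a chemokine receptor of tip cells and leukocytes, rose with CDTX after sham surgery by 2.69. Among 10 kept angiogenesis inhibitors 6 rose and 1 fell with CDTX after SCI (22.1% and 22.2% of all genes), led by Col18a1, the collagen that yields endostatin, at 2.07, and 5 rose and 1 fell after sham surgery (23.7% and 26.9% of all genes), led by the platelet and macrophage chemokine Pf4 at 3.6.

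Pericytes and smooth muscle cells surround the endothelium, and 10 of their listed genes were kept. With CDTX after SCI 3 rose and 3 fell, where 22.1% of all genes rose and 22.2% fell, so these counts are near the background. Abcc9 and Rgs5, pericyte genes, fell by 1.29 and 1.12, and Pdgfrb, the pericyte growth factor receptor, rose by 0.97. After sham surgery 1 rose and 7 fell, against 23.7% and 26.9% of all genes, and median scaling gave 2 and 1. Kcnj8, a pericyte potassium channel gene, fell by 1.63 (-0.86 under median scaling).

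Macrophage and monocyte markers moved with CDTX beside these genes. All 10 kept macrophage and monocyte markers rose with CDTX after SCI (median 2.50) and after sham surgery (median 3.26), and their summed level was 14800 to 21910 in SCI+CDTX and 19770 to 23250 in Sham+CDTX against 1116 to 4867 and 1412 to 2541 in the saline groups. Ccr2 was detected on no array. Of all genes 22.1% rose after SCI and 23.7% after sham surgery. Of 7 kept neutrophil markers 2 rose after SCI (median -0.26) and 2 after sham surgery (median 0.19), near those shares. Of 6 kept endothelial activation genes 2 rose with CDTX after SCI (median 0.01) and the same 2 after sham surgery (median 0.09). They were Vcam1 and Icam1, adhesion molecules of activated endothelium that leukocytes and other cells also carry. They rose by 1.33 and 1.58 after SCI and by 2.31 and 1.56 after sham surgery. After each surgery limma gave 1 lower gene of this list at an unadjusted p under 0.05. The part of leukocytes in the rise of Pecam1, Cd93 or Lmo2, which they also carry, was not tested.

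The genes whose levels were most like those of Vegfa ILMN_2484527 over the 15 arrays, among 10951 others, were Rcan2 (Pearson's r 0.972), Fitm2 (0.97) and Kcnc1 (0.97). For Vwf they were Csnk1g2 (0.968), Sppl2b (0.963) and Camta2 (0.96), and for Angpt2 Drctnnb1a (0.910), Rfc2 (0.909) and Nfatc4 (0.891). The nearest gene was Ctc1 for Pecam1 (0.941), Lzts3 for Kdr (0.944), Parp3 for Emcn (0.925), Dyrk2 for Tek (0.921), Git2 for Tie1 (0.897) and Sun2 for Cdh5 (0.896). These values describe arrays that fall into 4 groups and carry no test. No member or listed endothelial gene was among the 3 nearest of any member.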

How the data were processed

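The authors deposited mean bead intensity with no normalization, a detection p-value and bead numbers per probe and array, per the file headers, made with GenomeStudio 2011.1 per the submitters' processing notes. Intensity and p-values of the authors' own group comparison come from a second deposited table, which the authors normalized by the average method and corrected for background, per the file headers. Whether those p-values were corrected for multiple tests is not given in the sources used here. In limma 3.58.1 on R 4.3.3, neqc corrected, quantile normalized and log2 transformed 15 arrays with an offset of 16, so folds of dim probes are understated. lmFit and eBayes fitted 4 group means to 14763 probes, and all adjusted p-values are limma's, by Benjamini-Hochberg within a comparison at 0.05. Symbols were updated through Entrez identifiers for 23681 probes. Named genes are all member probes, the up to 3 called genes of a list with the largest change in a comparison, by the brightest kept probe, and the 3 genes most correlated with each member. Members and lists were chosen with earlier results of these data known. The fit was tested on simulated data. Alternatives were other scalings, filters, array sets, moderation, a replicate block, separate slides and each array left out. Unused per-sample columns numbered 0.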

Additional observations from a re-analysis of the deposited data

Results flagged for a closer look

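Of 36 groups of 4 arrays checked for a lone value, 2 held one, where chance gives about 1 in 20. Cdh5 read 7.34 on Sham+Saline 2, with the next value of its group at 6.70. Vegfa ILMN_3121255 read 7.55 on Sham+Saline 1, with the next at 7.26. Without Sham+Saline 2 the Cdh5 difference between SCI+CDTX and Sham+Saline lost its call (adjusted p of 0.0798 to 0.0948 over this array and SCI+CDTX 1).

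The response to CDTX differed between SCI and sham mice by the interaction test at 7 probes: Vwf (2.44), Angpt2 (1.34), Pecam1 ILMN_2700982 (1.16), Tie1 (1.12), Vegfa ILMN_2484527 (1.03), Emcn (1.02) and Vegfa ILMN_3121255 (0.98). For Vwf, Angpt2, Pecam1, Tie1 and Emcn the CDTX difference was above 0 after SCI and below 0 after sham surgery, and for both Vegfa probes it was below 0 after both. Only the Vwf difference was called after both surgeries. Angpt2 and Pecam1 were called only after SCI, Emcn and both Vegfa probes only after sham surgery, and Tie1 after neither. Under median scaling the differences of Pecam1 (1.16 and 0.48), Angpt2 (1.37 and 0.50) and Tie1 (0.79 and 0.09) were above 0 after both surgeries.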

How the results depend on the processing

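Vegfa was lower in each injured group than in Sham+Saline under every alternative run, and Angpt2 and Pecam1 ILMN_2700982 were called higher in SCI+CDTX than in SCI+Saline under each that gives a test. Median scaling called 7 members in SCI+CDTX against SCI+Saline, 2 in SCI+CDTX against Sham+CDTX, 3 in SCI+Saline against Sham+Saline and 2 in the interaction. Of 72 member values it changed the sign of 16, of which 5 were called under either scaling: Cdh5 (0.09), Emcn (0.08) and Tek (0.09) in SCI+CDTX against Sham+Saline and Pecam1 ILMN_2700982 (0.48) and Tek (0.40) in Sham+CDTX against Sham+Saline, where the authors' final table gave Tek 0.10. All 16 arrays called 1 member in SCI+CDTX against Sham+CDTX. With the probe difference score as a covariate, 0 were called there (1 at an unadjusted p under 0.05) and 0 in the interaction (5), and 9 values changed sign, of which 4 were called without the score: Angpt2 (-0.01), Flt1 (0.74) and Vwf (-0.83) in SCI+CDTX against Sham+CDTX and Vwf (1.46) in Sham+CDTX against Sham+Saline. Over all 14955 probes the fit with the score called 263 in SCI+CDTX against Sham+CDTX and 43 in the interaction. The cause of these changes was not tested. With each array left out in turn, the calls ranged from 3 to 5 in SCI+CDTX against SCI+Saline, 5 to 7 in Sham+CDTX against Sham+Saline, 2 to 6 in SCI+CDTX against Sham+CDTX, 9 to 10 in SCI+Saline against Sham+Saline, 5 to 8 in SCI+CDTX against Sham+Saline and 6 to 8 in the interaction. Replicate numbers did not pair the samples: same-numbered arrays had correlated deviations of -0.27 to 0.38 (median -0.02, against 0.01 for other numbers). A replicate block gave 3, 6, 4, 10, 6 and 6 calls in that order. Kdr was detected on some arrays of each group but Sham+CDTX, so comparisons with that group give only bounds.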
